A study of Mus musculus with 1528 samples.

Results

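The C1q-Maf-high macrophages were 216 of 1439 kept single cells, taken from 1524 sorted wells of bone marrow-derived macrophages (BMDMs). They were chosen by a score, the mean log2(CPM + 1) of *C1qa*, *C1qb*, *C1qc*, *Maf*, *Stab1* and *Cbr2*, where CPM is a gene's fragments scaled to the total gene fragments of the cell. The top 15% of all kept cells by this score were members, with 1 threshold for both treatments. A cell was kept with at least 200000 gene fragments, at least 5000 detected genes and at most 10% mitochondrial fragments. The BMDMs came from 2 wild-type C57BL/6 mice (C57BL/6J in the study's methods) and were grown with M-CSF. Cells of each mouse were stimulated for 24 h with IL4 and IL13, without or with TNF (10 ng/ml each), so that the cells without TNF also carried an M2 stimulus. Live cells were sorted into 4 plates of 384 wells for Smart-seq2, a full-length cDNA protocol. Each plate held both treatments of 1 mouse in separate rows, so plate row and treatment cannot be told apart. The cells of 1 mouse under 1 treatment are called a set below, and the 4 sets held 73 and 44 members for mouse 1 and mouse 2 without TNF and 46 and 53 members with it. All cells are cultured marrow macrophages of 2 mice, which limits what they say about macrophages in tissues.

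*C1qa*, *C1qb* and *C1qc* encode the A, B and C chains of C1q, the recognition molecule of the classical complement pathway, which macrophages secrete and which also binds dying cells. *Maf* encodes the transcription factor c-Maf, *Stab1* the scavenger receptor stabilin-1, and *Cbr2* a carbonyl reductase. These genes are known as marks of tissue-resident macrophages, which clear dying cells and debris. IL4 and IL13 drive the M2 state through STAT6, whereas TNF drives inflammatory genes through NF-κB and MAPK signaling.

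Members and other kept cells had similar depth. The median total was 461320 fragments in members and 473340 in the other 1223 cells, the median number of detected genes 7868 and 7834, and the median mitochondrial share 3.35% and 3.14%. Kept cells held from 200235 to 6122892 fragments, and members at most 1743476. Smart-seq2 carries no molecular identifiers, so PCR copies of 1 molecule are all counted, and the intervals below describe only the error of counting cells.

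The score formed a continuous range and not a separate cloud. It ran from 7.6325 to 10.4 in members (median 8.34) and from 0.579 to 7.6273 in the other cells (median 5.25). Within 0.1 of the threshold there were 17 members and 20 other cells. The last member, a cell of mouse 2 with TNF, had 1.81 for *C1qa* and 8.95 for *Maf* on the log2(CPM + 1) scale. The first cell outside, of mouse 1 with TNF, had 8.34 for *C1qa* and 6.13 for *Maf*. Of the members, 152 were above the median of the other cells of their own set for all 6 genes, and 57 for 5 of them. In the other cells, 56 were above it for all 6. The score is the mean of these genes, so the rule in large part sets these counts, and they are no finding.

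**Figure D1:**
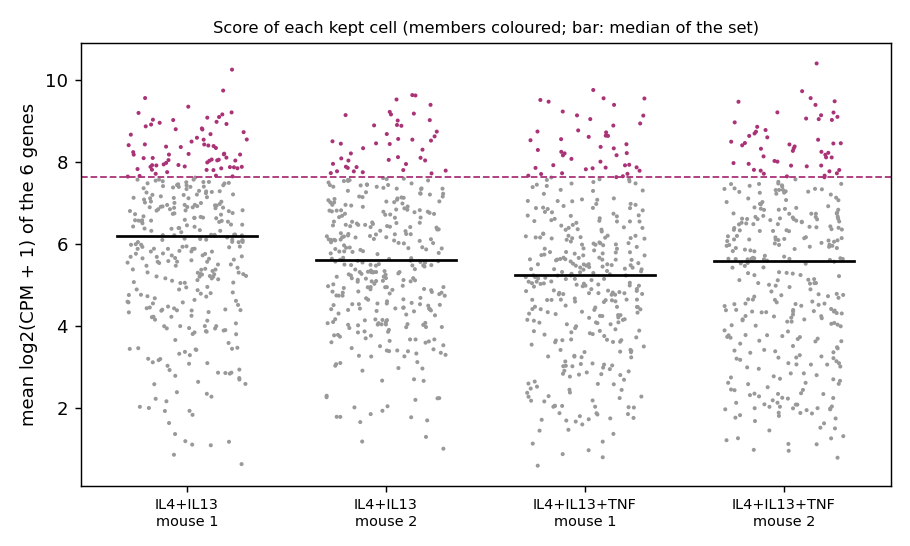
Score of each kept cell, as mean log2(CPM + 1) of the 6 genes (y axis), in the 4 sets of mouse and treatment (x axis). Coloured points are the 216 members, grey points the other cells, black bars the median of each set and the dashed line the threshold at 7.6325; no gap separates members from other cells.

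The share of members did not move in 1 direction with TNF. In mouse 1 it was 20.2% of 362 kept cells with IL4+IL13 (95% exact Clopper-Pearson interval 16.2 to 24.7%) and 12.7% of 363 with IL4+IL13+TNF (9.43 to 16.5%). In mouse 2 it was 12.3% of 359 (9.05 to 16.1%) and 14.9% of 355 (11.4 to 19.1%). By plate, mouse 1 had 16.6% and 23.8% members with IL4+IL13 against 12.4% and 12.97% with TNF. Mouse 2 had 10.3% and 14.4% against 14.3% and 15.6%. The rule itself set these shares, so they are given with no test.

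The score joined genes that went opposite ways with TNF. Over all kept cells, with no choice of members, the summed counts of *C1qa* stood at 105.8 and 52.8 CPM with IL4+IL13 (mouse 1 and mouse 2) and at 212 and 199.9 CPM with TNF. *Maf* stood at 179 and 199 CPM against 66.5 and 114 CPM. In an edgeR fit of these 4 sums, which was added after the data had been seen, the log2 fold change of *C1qa* was 1.47 (SE 0.36, adjusted p = 0.374) and that of *Maf* -0.98 (SE 0.29, adjusted p = 0.464). With the mouse as a block, both passed the threshold of 0.05, at 1.55 (SE 0.23, adjusted p = 0.0296) for *C1qa* and -1.03 (SE 0.17, adjusted p = 0.0409) for *Maf*. *Stab1* was at -0.79 in the blocked fit (adjusted p = 0.06) and *Cbr2* at -0.75 (adjusted p = 0.135). *C1qb* was at -0.07 (adjusted p = 0.717) and *C1qc* at -0.44 (adjusted p = 0.143). The estimates of the C1q chains thus differed in sign, and the difference between chains was not tested.

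A score of the C1q genes alone picked in large part other cells than a score of *Maf*, *Stab1* and *Cbr2*. Each picked 216 cells, of which 62 were shared, 28.7% of either group. By the C1q score, 46 and 31 cells came from the cultures without TNF and 63 and 76 from those with it, for mouse 1 and mouse 2. By the score of *Maf*, *Stab1* and *Cbr2*, 89 and 52 came from IL4+IL13 and 36 and 39 from IL4+IL13+TNF. The members held 111 cells of the first group and 157 of the second.

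The C1q genes are neighbours on chromosome 4 of mm10 and are all on the minus strand. *C1qb* (ENSMUSG00000036905) is at chr4:136880129-136886187, *C1qc* (ENSMUSG00000036896) at chr4:136889804-136893065 and *C1qa* (ENSMUSG00000036887) at chr4:136895917-136898803. *Maf* (ENSMUSG00000055435) is at chr8:115682942-115707794, *Stab1* (ENSMUSG00000042286) at chr14:31139013-31168641 and *Cbr2* (ENSMUSG00000025150) at chr11:120729489-120732114. Counting did not use the strand, and genes on the plus strand overlap *Maf* (*Gm15655*) and *Stab1* (*Nt5dc2*). Reads of these partners cannot be told apart by strand.

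*C1qb* was the most abundant of the 6 in members. In the sums of the 4 sets, in the order IL4+IL13 mouse 1 and mouse 2, then IL4+IL13+TNF mouse 1 and mouse 2, members had 2954, 2965, 3367 and 3423 CPM. The other cells had 1623, 1570.0, 1310.0 and 1371 CPM. The rule chose members by the levels of these 6 genes, so their higher levels and detection in members are set by it and are no finding. After thinning each cell to 200000 fragments it was found in 100% of members and 99.0% of other cells. *C1qc* was at 899, 1023, 688.5 and 1084 CPM in members and at 332.5, 505, 206 and 345 CPM in the others. *C1qa* was at 279.8, 178, 637 and 544 CPM in members and at 64.1, 36.7, 156.5 and 139 CPM in the others. It was found in 94.9% of members and 61.9% of other cells. Per kb of gene length, members held 2715 to 3146 CPM of *C1qb*, 357 to 561 CPM of *C1qc* and 171 to 612 CPM of *C1qa*, so the transcripts of the chains were at unequal levels in every set.

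The other 3 genes of the score were detected in fewer of the other cells, which the rule also sets, since a cell without a transcript scores 0 for that gene. *Maf* was found in 99.1% of members and 74.1% of other cells after thinning, *Stab1* in 96.3% and 56.0%, and *Cbr2* in 92.6% and 41.1%. *Maf* was at 388, 586, 209.6 and 405.5 CPM in members against 129, 149.6, 47.9 and 62.2 CPM. *Stab1* was at 277, 425, 179 and 232 CPM against 74.1, 73.5, 34.7 and 45.4 CPM. Both were lower in members with TNF than in members without it, in both mice. *Cbr2* was at 238, 307, 281 and 259 CPM in members, with overlapping treatments. In the other cells *Cbr2* was at 100.5 and 47.0 CPM with IL4+IL13 and at 22.4 and 22.1 CPM with TNF. Its gap between members and others was thus 1.23 and 2.68 on the log2(CPM + 1) scale with IL4+IL13, and 3.59 and 3.49 with TNF. The rule used the levels of these genes with 1 threshold for both treatments. Their differences between treatments inside members, and this gap, are therefore no finding about TNF.

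**Figure D2:**
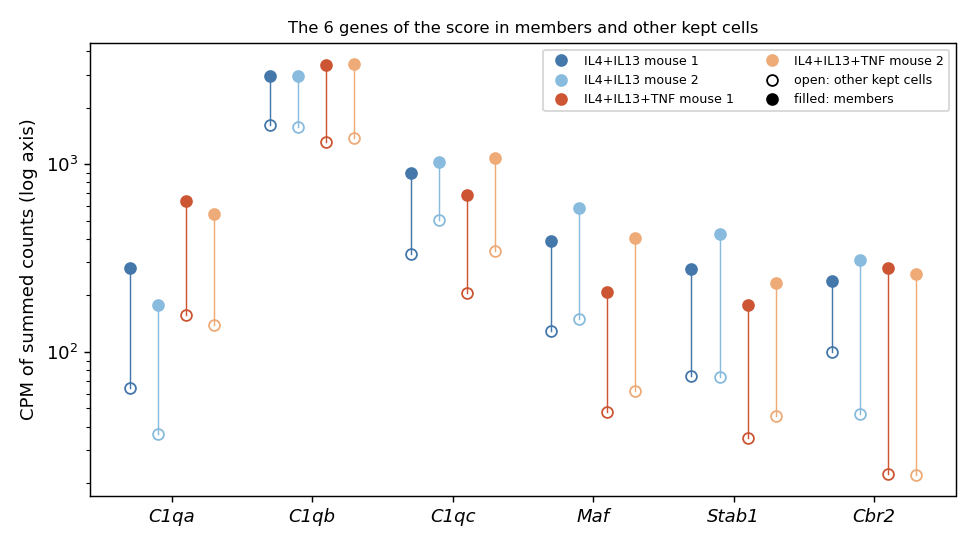
CPM of summed counts (log axis) of the 6 genes of the score, with filled points for members, open points for other kept cells and 1 colour for each set of mouse and treatment. The lines join members and others of the same culture; *C1qb* members sit between 2954 and 3423 CPM, and *C1qa* is higher with TNF in both kinds of cell.

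Across the 1439 kept cells *C1qb* and *C1qc* went together most closely, with a Spearman correlation of 0.781 (0.706 to 0.846 in the 4 sets). *C1qa* and *C1qb* correlated at 0.56, *C1qc* and *Maf* at 0.422, *Maf* and *Cbr2* at 0.368, and *C1qa* and *Cbr2* at 0.179. Inside the 216 members *C1qa* and *Maf* correlated at -0.295, against 0.192 in all kept cells. The members were selected on the sum of these values, which bears on every correlation inside them. All these values share depth and culture and are given as a description.

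The start regions of *C1qb* and *Stab1* are shown because 1 is a C1q gene and the other a *Maf*-side gene of the score, and both hold the same pair of motifs. Of the 6 genes, 4 had a start region in the RefSeq table used here (GRCm38.p6), and the 250 bases before the start were searched on both strands. The motifs were the MAF core TGCTGA and the PU.1 core GAGGAA, whose matches did not overlap each other. Both genes are on the minus strand, and *C1qb* is read from chr4:136886201-136886450 and *Stab1* from chr14:31168642-31168891. The capitals mark the matches.
C1qb: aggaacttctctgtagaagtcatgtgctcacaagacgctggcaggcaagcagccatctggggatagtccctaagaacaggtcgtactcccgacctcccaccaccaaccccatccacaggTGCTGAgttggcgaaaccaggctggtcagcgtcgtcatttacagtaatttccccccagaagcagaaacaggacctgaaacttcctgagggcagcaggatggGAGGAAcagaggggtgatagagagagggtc
Stab1: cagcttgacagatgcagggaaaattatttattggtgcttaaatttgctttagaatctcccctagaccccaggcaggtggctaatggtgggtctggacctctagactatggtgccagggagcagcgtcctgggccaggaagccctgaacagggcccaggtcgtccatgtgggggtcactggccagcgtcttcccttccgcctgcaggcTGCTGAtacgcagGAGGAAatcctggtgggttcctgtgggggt
The MAF core began 131 bases before the start of *C1qb* and 43 bases before that of *Stab1*. The PU.1 core began 30 bases before the start in both. *C1qc* and *Cbr2* held the PU.1 core, and no MAF core, in their 250 bases. Of 32851 start regions of the same length, 16.1% held the MAF core and 23.3% the PU.1 core. The share that held both is not given, so the pair is no result about these genes. These are matches of letters, and binding was not measured.

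Beyond the genes of the score, 9 genes were at least 2-fold higher in members than in other cells in all 4 sets, or 0.104% of 8640 genes measured in members. Genes were measured here when they were found in at least 25% of members with at least 10 CPM in members, and 1 CPM was added before each fold. A gene low in members could not be counted. Members were selected from the same cells, so these folds are a description with no test.

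The chemokine *Ccl8* was at 109.8, 121, 754 and 1503 CPM in members and at 21.7, 54.5, 145 and 287 CPM in other cells. It was 2.19-fold to 5.22-fold higher in members. *Ccl12*, its neighbour in the same chemokine cluster, was at 83.2, 61.6, 298 and 550.3 CPM against 36.2, 25.9, 102 and 69.3 CPM. Both chemokines were higher in members in each set, with the highest levels with TNF. Cells with at least 100 CPM of *Ccl8* and *Ccl12* together, after thinning, were 30.1% and 36.4% of members and 11.4% and 15.6% of other cells with IL4+IL13. With TNF they were 73.9% and 92.5% of members and 31.2% and 36.8% of other cells.

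*Mertk*, a receptor kinase that binds dying cells through bridging proteins, was at 25.4, 70.4, 16.01 and 40.0 CPM in members and at 11.4, 31.3, 5.93 and 8.2 CPM in the others. *Siglec1*, the sialic acid-binding receptor CD169 of resident macrophages, was at 46.8, 75.8, 40.7 and 82.2 CPM against 19.6, 30.1, 12.7 and 18.2 CPM. The 4-span membrane protein genes *Ms4a4a* and *Ms4a6b* had their largest folds with TNF. *Ms4a4a* was 1.32 and 1.12 higher on the log2 scale with IL4+IL13, and 2.97 and 2.66 higher with TNF. *Ms4a6b* was 1.10 and 1.08 higher, then 2.19 and 1.79. *Prrg1*, a membrane protein gene with a Gla domain, was found in 34.7% of members and 16.2% of the others and was 3.18-fold to 4.59-fold higher. *Cnrip1*, which encodes a cannabinoid receptor-binding protein, was 2.16-fold to 2.63-fold higher. *Ang*, the ribonuclease gene of angiogenin, was 2.19-fold to 6.28-fold higher, but it lies within *Rnase4* on the same strand, so reads of these genes may be split wrongly.

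At least 2-fold lower in members in all 4 sets were 21 genes, 0.243% of the 8659 that were found in at least 25% of other cells with at least 10 CPM there. This filter was on the other cells, where the genes are high, and several were under 10 CPM in members. Ranked by the smallest fold of the 4 sets, a matrix protease gene and MHC class II genes came first. *Mmp12*, macrophage elastase, was at 29.9, 16.3, 102.9 and 84.7 CPM in members and at 709, 563.5, 1334 and 1270.0 CPM in the others, or 12.8-fold to 32.7-fold lower. Most members still held it, since after thinning it was found in 76.9% of members and 85.7% of other cells. The MHC class II chain genes *H2-Aa*, *H2-Ab1* and *H2-Eb1* present peptides to CD4 T cells. *H2-Aa* was at 12.97, 31.5, 135 and 249 CPM against 303, 527, 709 and 1411 CPM. *H2-Eb1* was at 3.97, 30.4, 49.5 and 128 CPM against 144, 325, 383 and 862 CPM. *H2-Ab1* was 5.23-fold to 14.6-fold lower.

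The spread of MHC class II inside the other cells was wide. With *H2-Aa*, *H2-Ab1* and *H2-Eb1* summed in thinned cells, the median of the other cells was 10.0 and 95.0 CPM with IL4+IL13 and 230.0 and 515 CPM with TNF. Their upper quartiles with TNF were 1570.0 and 2835 CPM. Members had medians of 5.0 and 70.0 CPM with IL4+IL13, and upper quartiles with TNF of 377.5 and 300.0 CPM. In each set the median was lower in members. In mouse 1 without TNF the medians of both kinds of cell were only a few fragments in a thinned cell. Cells with at least 100 CPM of the 3 genes were 5 of 73 and 11 of 44 members, and 55 of 289 and 154 of 315 other cells, with IL4+IL13. With TNF they were 43.5% and 50.9% of members and 58.0% and 76.8% of other cells, so this share too was lower in members of each set.

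The next lowest were the surface molecules *Itgax* (CD11c) and *Cd24a*, the lectin *Clec4b1* and the proteoglycan *Sdc1*. *Itgax* was at 0.805, 0.703, 12.6 and 24.1 CPM in members against 11.2, 25.5, 94.6 and 128 CPM. *Cd24a* was at 8.03, 0.904, 5.77 and 8.18 CPM against 42.3, 53.6, 34.7 and 51.8 CPM. *Clec4b1* was 4.46-fold to 10.5-fold lower and *Sdc1* 2.92-fold to 14.6-fold lower. *Axl*, a receptor kinase of the same family as *Mertk*, was at 0.662, 10.2, 11.4 and 10.7 CPM in members against 21.3, 54.7, 34.3 and 59.9 CPM. The related receptors thus lay on opposite sides, *Mertk* higher and *Axl* lower in members of every set. *Ccr2*, the receptor for several CC chemokines, was 2.46-fold to 5.74-fold lower in the sums. After thinning, however, *Ccr2* was found in similar shares of cells, 16.2% of members and 17.8% of the others. With TNF it was found in 16.2% of members and 12.4% of the others. The other 11 genes had mean levels of 5.21 to 1659 CPM in members and included *H2-DMa* and *Anxa1*.

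**Figure D3:**
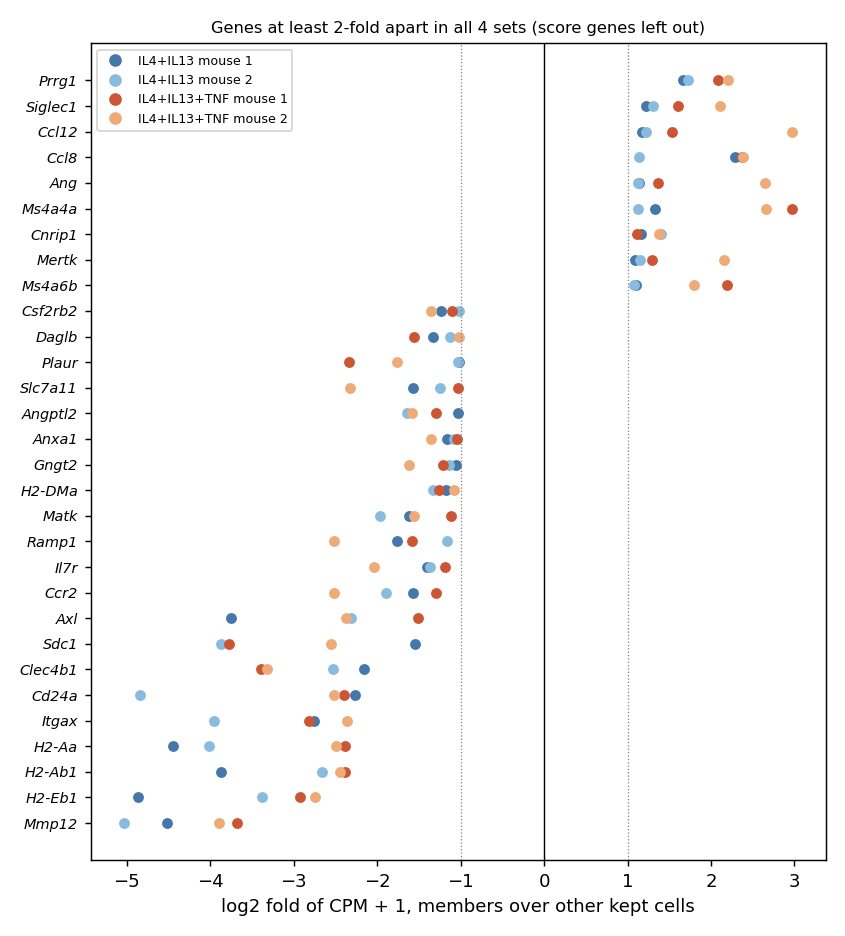
Log2 fold of CPM + 1 in members over other kept cells (x axis) for the 9 genes higher and the 21 genes lower in all 4 sets, with 1 point for each set. Dotted lines mark 2-fold; *Mmp12* and the MHC class II genes lie farthest to the left, and *Ms4a4a* reaches 2.97 with TNF in mouse 1.

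Some of these genes depended on how members were defined. Of 7 other definitions, *Mmp12*, *H2-Eb1*, *Cd24a*, *Clec4b1* and *Axl* were counted as lower in 7, and *H2-Aa*, *H2-Ab1*, *Itgax* and *Sdc1* in 6. The definition under which *H2-Aa*, *H2-Ab1*, *Itgax* and *Sdc1* were not counted was the score of the C1q genes alone. *H2-DMa* was not counted there either. Of the higher genes, *Prrg1* was counted in 6, *Ccl12* in 5, *Ang* in 4, *Ccl8* and *Ms4a4a* in 3, and *Mertk*, *Siglec1*, *Cnrip1* and *Ms4a6b* in 2. None of these 9 was counted under the score of the C1q genes alone, and *Prrg1* and *Ccl12* were the ones counted under the score of *Maf*, *Stab1* and *Cbr2*.

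The gene lists were read by direction in all 4 sets, whatever the size. Of 8885 genes measured in members or in the others, 14.9% were higher in members in all 4 sets and 11.1% were lower, with a median log2 fold of 0.02. All 7 measured Fc receptor genes were higher (median log2 fold 0.76). *Fcgr3* was higher by 0.18, 0.32, 0.54 and 0.62 on the log2 scale, and *Fcgrt*, the neonatal Fc receptor that recycles IgG, by 0.17, 0.48, 0.94 and 1.92. Of 24 tissue-resident macrophage genes 15 were measured, of which 9 were higher and 0 lower (median 0.44). *Selenop*, a selenium transport protein, was at 1016, 1827, 388 and 808 CPM in members against 652, 885, 147 and 195 CPM. *Igf1*, a growth factor, was at 2131, 2506, 2563 and 3302 CPM against 1662, 2069, 1918 and 1999 CPM. *Vsig4* was at 0 in members.

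Complement genes other than C1q were mixed. Of 22 such genes 10 were measured, with 4 higher and 2 lower. The anaphylatoxin receptor gene *C3ar1* was at 1307, 1258, 911 and 1132 CPM in members against 1120.0, 1240.0, 572 and 539 CPM. *Cfp*, which encodes properdin, was higher by 0.15, 0.43, 0.45 and 0.39 on the log2 scale. Chemokine genes were higher in 5 of 11 and lower in 1. The CCR2 ligand *Ccl7* was at 1248, 223, 1438 and 576 CPM in members against 725, 126, 326 and 114 CPM. *Ccl9*, the most abundant chemokine, differed by -0.13 to 0.11 on the log2 scale. Of 18 interferon-stimulated genes 6 were higher and 1 lower, and of 16 scavenger and lectin receptors 6 were higher and 4 lower.

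Of 29 IL4-linked M2 genes 15 were measured, with 6 higher and 1 lower. *Mrc1*, the mannose receptor CD206, was at 2115, 1750.0, 1270.0 and 1619 CPM in members against 1021, 1217, 448.5 and 583 CPM. *Clec10a*, a galactose-type lectin, was at 369, 474, 229.5 and 267.5 CPM against 239, 347, 60.7 and 93.7 CPM. Its close paralog *Mgl2* was at 979.6, 783, 762 and 878 CPM against 768, 652, 320.1 and 426 CPM. *Clec10a* and *Mgl2* are similar in sequence, so their counts may be split wrongly. *Apoe* was 0.54 to 1.03 higher in members on the log2 scale, with 379, 611, 106 and 134 CPM. *Retnla*, which encodes RELMα, did not keep 1 direction: it was at 47.3 and 339.5 CPM in members against 94.2 and 543 CPM with IL4+IL13, and at 38.1 and 29.8 CPM against 6.74 and 21.9 CPM with TNF. *Il10* was at 21.9, 2.86, 3.76 and 3.91 CPM in members against 5.91, 4.01, 1.65 and 0.245 CPM.

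MHC class II genes were lower in 8 of 8 (median -1.26), which includes *Cd74*, the invariant chain, at 81.2, 134, 340.1 and 338 CPM in members against 257.5, 362, 626 and 739 CPM. Lipid-handling genes were lower in 8 of 18 and higher in 1, with *Lgals3* lower by 0.25 to 0.58 and *Gpnmb* by 0.18 to 0.92 on the log2 scale. Of the receptors for TNF, IL4 and CSF1, 5 of 10 were lower and 2 higher. The TNF receptor gene *Tnfrsf1b* was at 118, 181, 138 and 227.5 CPM against 155.5, 299.5, 251 and 319 CPM. *Csf1r*, the M-CSF receptor, was at 1010.0, 1680.0, 1146 and 1841 CPM against 811.5, 1277, 996 and 1221 CPM.

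Other lists held genes on both sides or few on either. Lysosomal protease genes were lower in 6 of 19 and higher in 3, NF-κB and inflammatory genes lower in 6 of 23 and higher in 3, iron and heme genes lower in 4 of 13 and higher in 2, and genes for uptake of dying cells lower in 6 of 22 and higher in 3. Macrophage transcription factors were higher in 6 of 30 and lower in 7. S and G2/M genes were higher in 1 of 24 and lower in 0, stress genes higher in 5 of 15 and lower in 1, and carbonyl reductases related to *Cbr2* in 0 of 6 either way.

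**Figure D4:**
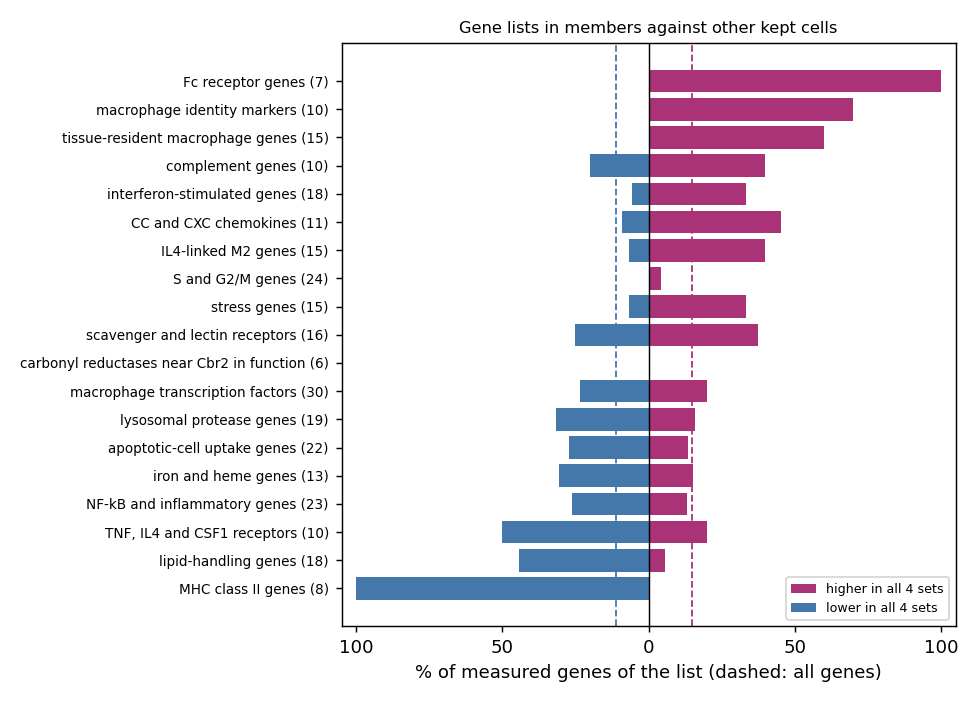
Percent of the measured genes of each list (number in brackets) that were higher in members in all 4 sets (right) or lower in all 4 (left). Dashed lines give all 8885 measured genes, at 14.9% and 11.1%; Fc receptor genes lie at 100% on the right and MHC class II genes at 100% on the left.

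The members carried macrophage identity genes. Of 10 such markers 7 were higher in members in all 4 sets and 0 lower. *Adgre1*, which encodes F4/80, was at 1139, 939, 1055 and 1018 CPM against 861, 703, 725 and 603 CPM, and *Cd68* differed by -0.08 to 0.04 on the log2 scale. Markers of other cells were low. Summed over the list, lymphocyte markers were at 0.183 to 1.96 CPM in members and at 1.69 to 3.93 CPM in the others, neutrophil markers at 0.257 to 4.29 and 0.669 to 6.93 CPM, and mast cell and basophil markers at 0.515 to 2.61 and 2.79 to 12.8 CPM. Fibroblast markers were at 0.575 to 4.53 and 0.738 to 2.3 CPM, and erythroid and megakaryocyte markers at 0.0 to 5.77 and 0.194 to 0.394 CPM. Endothelial markers were at 66.7 to 145 and 64.8 to 156 CPM, most of it *Vwf*.

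Dendritic cell markers, 9 genes, summed to 116 to 171 CPM in members and to 121 to 384 CPM in the others. *Irf8*, which macrophages also express, made up most of it in members, with a mean of 131.5 CPM, but 148 of the 384 CPM in other cells of mouse 2 with TNF. *Zbtb46* was at 0.0288 to 1.81 CPM in members and at 0.407 to 7.36 CPM in the others. Osteoclast markers, 7 genes, summed to 253 to 465 CPM in members and to 634 to 935.5 CPM in the others. *Dcstamp*, a fusion gene, was at 0.22 to 0.772 CPM in members and at 8.13 to 57.6 CPM in the others. In the order of the sets, the dendritic sum was 120.6, 159, 116 and 171 CPM in members against 121.3, 164, 129 and 384 CPM. It was thus far apart only in mouse 2 with TNF. *Zbtb46* was at 1.80 CPM in members against 1.27 CPM in mouse 1 with TNF, and lower in members of the other sets. The osteoclast sum was lower in members of each set, as were the MHC class II genes and *Mmp12*. The part of these markers in that difference was not tested.

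The members' response to TNF was compared over 4 sums of counts, 2 mice in each treatment, with 19421547 to 34759680 fragments a sum. With edgeR's quasi-likelihood test, 0 of 15383 genes (0.0%) passed an adjusted p of 0.05 in members, and the lowest adjusted p was 0.379. At an unadjusted p under 0.05 there were 933 genes, 478 higher and 455 lower with TNF. With the mouse as a block the count was also 0. DESeq2 called 218 genes, 143 higher and 75 lower, and limma on mean log2(CPM + 1) over cells called 2 (*C3* and *Lyz2*, named after their values were seen). With 2 mice against 2, an exact permutation test of 1 gene cannot go below p = 0.333. In the 1223 other cells, edgeR called 1 of 17045 genes (0.00587%), *Clec4e*, and 599 with the mouse as a block.

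The sizes of change in members are therefore given as values. Of 8640 genes measured in members, 1.32% were at least 2-fold higher with TNF in both mice and 1.33% at least 2-fold lower. NF-κB and inflammatory genes were higher by this measure in 16 of 23 and lower in 0, with a median log2 fold change of 1.79 over the 29 genes in the edgeR fit (1.89 in the other cells, 0.01 over all genes in members). *Clec4e*, which encodes the lectin Mincle, was at 15.7 and 4.47 CPM in members with IL4+IL13 and at 359 and 439 CPM with TNF. Its log2 fold change was 5.37 (SE 0.66, edgeR adjusted p = 0.492) in members and 5.14 (adjusted p = 0.0153) in other cells. The NF-κB inhibitor gene *Nfkbia* was at 113 and 115 CPM against 525 and 320.4 CPM, a log2 fold change of 1.94 (SE 0.29, adjusted p = 0.533). *Tnip3*, another inhibitor of the pathway, had 2.03 (SE 0.27) and *Sod2*, the mitochondrial superoxide dismutase, 1.61 (SE 0.20). *Tnfaip2* was 1.11 and 1.14 higher on the log2 scale in the 2 mice. None of these lay past the threshold, and values of the 2 treatments did not overlap for any of these 5 genes.

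Of 11 chemokine genes 4 were at least 2-fold higher with TNF in members of both mice and 1 lower. *Ccl8* had a log2 fold change of 3.34 (SE 0.39, edgeR adjusted p = 0.492) and *Ccl12* of 2.61 (SE 0.37, adjusted p = 0.533). On the 4 plates taken one by one, *Ccl8* was higher by 2.57 to 4.92. Of 7 MHC class II genes measured in members 4 were at least 2-fold higher and 0 lower. *H2-Aa* had a log2 fold change of 3.16 (SE 0.59, adjusted p = 0.543), *H2-Ab1* of 1.62 (SE 0.78), *H2-Eb1* of 2.41 (SE 1.05) and *Cd74* of 1.70 (SE 0.32). *Itgax* had 4.65 (SE 0.63) and *Mmp12* 2.09 (SE 0.37), with 1.02 to 5.04 and 1.33 to 3.03 over the alternatives, and *H2-Eb1* had 1.37 to 4.57. The value for *Itgax* rests on a very low level, 0.805 and 0.703 CPM in members without TNF. With 1 CPM added, *Itgax* was 2.915 and 3.88 higher on the log2 scale in mouse 1 and mouse 2. Members with TNF thus carried more of these transcripts than members without it, yet less than the other cells of either treatment for *Mmp12*, *H2-Aa* and *H2-Ab1*. *Lyz2*, the macrophage lysozyme, was at 11960.0 and 12960.0 CPM against 27010.0 and 25380.0 CPM, a log2 fold change of 1.12 (SE 0.10, adjusted p = 0.379).

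Of 15 M2 genes measured in members 2 were at least 2-fold lower with TNF in both mice and 1 higher, with a median fitted log2 fold change of -0.21. Of 15 tissue-resident genes 3 were lower and 0 higher (median -0.35), and 0 of either list passed the threshold in edgeR. *Igf1* was at 2131 and 2506 CPM against 2563 and 3302 CPM. *Apoe* was at 379 and 611 CPM against 106 and 134 CPM in members, a log2 fold change of -2.0 (SE 0.33, edgeR adjusted p = 0.533). *Cnrip1* had -1.66 (SE 0.33), *Selenop* -1.21 (SE 0.47), *Fcgrt* -1.12 (SE 0.65), *Ang* -1.12 (SE 0.64), *Ms4a4a* -1.03 (SE 0.36) and *Ms4a6b* -0.97 (SE 0.35). *Retnla* differed by -0.30 in mouse 1 and by -3.47 in mouse 2 on the log2 scale, and by -3.91 and -0.03 on the 2 plates of mouse 1. *Clec10a* had -0.71 (SE 0.23), *Mrc1* -0.36 (SE 0.18) and *Mgl2* -0.05 (SE 0.18). *Mertk* had -0.73 (SE 0.69), *Il10* -1.61 (SE 0.99) and *Arg1*, the arginase of M2 cells, 1.76 (SE 1.05).

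**Figure D5:**
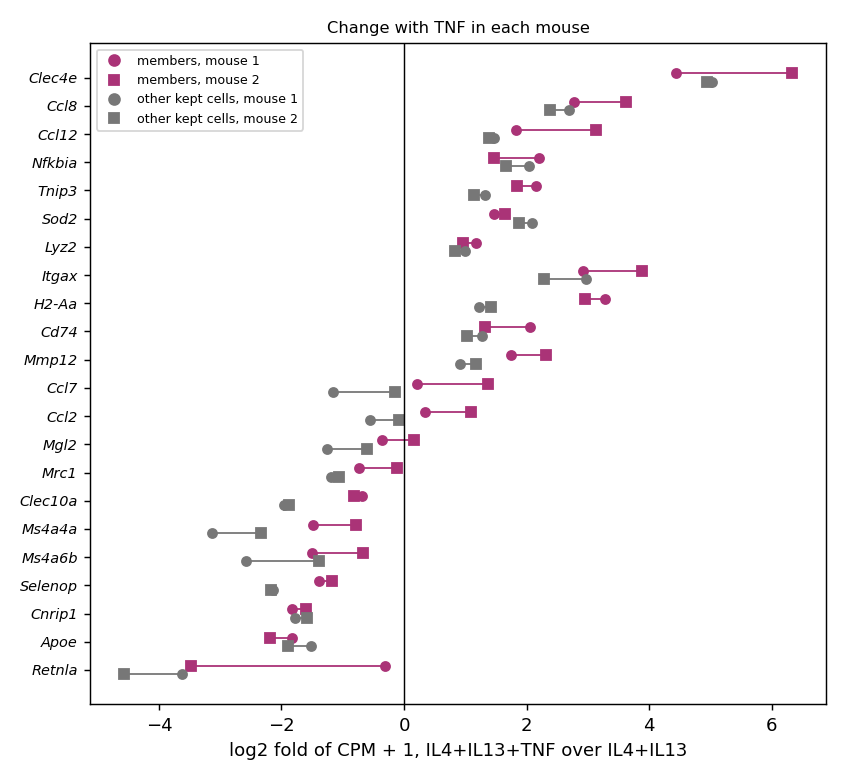
Log2 fold of CPM + 1 with IL4+IL13+TNF over IL4+IL13 (x axis) for 22 genes, in members (coloured) and other kept cells (grey), with circles for mouse 1 and squares for mouse 2. *Clec4e* lies at 4.44 and 6.33 in members, and *Ccl7* and *Ccl2* lie to the right of 0 in members and to the left in other cells.

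Whether TNF acted differently in members than in other cells was tested on 8 sums, with each culture as a block. In edgeR 0 of 18341 genes (0.0%) passed the threshold, with a lowest adjusted p of 0.952, and 919 had an unadjusted p under 0.05. DESeq2 called 84 and limma 0. Of the genes below, DESeq2 called *Clec10a*, *Mgl2*, *Retnla*, *Ms4a4a*, *H2-Aa* and *Mmp12*. It did not call *Mrc1*, *Apoe*, *Il10*, *C3ar1*, *Nfkbia* or *Cnrip1*. The edgeR estimates for the M2 genes are given with the values of each kind of cell. In members 0 genes passed in edgeR with or without the block, and their sums held fewer cells than those of the others. An adjusted p in other cells is therefore no sign of a difference from members. *Clec10a* had -0.71 in members and -1.83 in others (adjusted p = 0.224, and 0.00703 with the mouse as a block), a difference of 1.14 (SE 0.17, adjusted p = 0.96). *Mrc1* had -0.36 and -1.02 (0.0118 with the block in others), a difference of 0.66 (SE 0.17, adjusted p = 0.96). *Mgl2* had -0.05 and -0.84 (0.0717 with the block in others), a difference of 0.80 (SE 0.11, adjusted p = 0.96). All 3 had a more negative value in other cells in both mice, and so did *Retnla*. *Retnla* had -2.48 and -4.38, a difference of 2.26 (SE 0.70, adjusted p = 0.96). *Apoe* went the other way in both mice, with -2.0 in members and -1.64 in others, a difference of -0.34 (SE 0.17, adjusted p = 0.965). *Il10* had -1.61 and -2.29, a difference of 1.81 (SE 1.41, adjusted p = 0.991), and the mice did not agree in direction. *Ms4a4a* had -1.03 and -2.63 (0.0121 with the block in others), a difference of 1.66 (SE 0.20, adjusted p = 0.96). *C3ar1* had -0.27 and -0.99 (0.0143 with the block), a difference of 0.71 (SE 0.18). *H2-Aa* had 3.16 and 1.45 (0.00811 with the block), a difference of 1.82 (SE 0.22, adjusted p = 0.96), and *Mmp12* 2.09 and 1.12 (0.0121 with the block), a difference of 1.00 (SE 0.19). *Nfkbia* differed by -0.05 (SE 0.17) and *Cnrip1* by -0.03 (SE 0.24), so the estimates for these genes were nearly the same in both kinds of cell. Members with and without TNF were chosen by 1 threshold on genes of which *Maf* and *C1qa* themselves changed with TNF in the blocked fit of all kept cells, and the part of that choice in these differences was not tested.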

How the data were processed

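Single BMDMs of 2 mice were sorted into 4 plates, and the members, lists and tests of this report were chosen with earlier results of these data known. The authors aligned fragments to mm10 with gsnap and deposited counts of uniquely mapped fragments per Ensembl 98 gene and well (featureCounts 1.6.3), not normalized, with the strand not used, per the file headers. The table held 55421 genes, of which 55154 matched a symbol. The gene length column was used for levels per kb. The 92 spike-in rows stayed out of totals. 8 columns that match no sample and 3 columns of unassigned samples, which name no mouse, were not used, and 1524 wells were. Each mouse had 384 wells with IL4+IL13 and 378 with TNF. No doublet caller was run on singly sorted cells.

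Members against others were compared as CPM of counts summed per set, with 1 CPM added, with no test. TNF was tested on summed counts with edgeR 4.0.16 (TMM, Benjamini-Hochberg, 0.05) in R 4.3.3, on genes found in at least 5% of cells of either treatment that passed filterByExpr, with the 6 score genes left out. Standard errors were derived from the F statistic. The interaction model held the culture, membership and membership by TNF. Alternatives were DESeq2 1.42.0, limma 3.58.1, plain library sizes for TMM, no filter on genes, the block, 7 other definitions of members, including cells filtered at 3 median absolute deviations per plate, and each set left out. The series comes from 2 separate mice, and the number in the sample titles was read as the mouse. The study's text speaks of independent experiments, so mouse and experiment cannot be told apart. These numbers pair the sets, since both treatments of a number shared its plates. Deviations from the treatment mean correlated between treatments of 1 mouse at 0.234 over 15383 genes in members and at 0.539 in others. Fits were run first on simulated counts with the same dispersion for every gene and no difference between mice. These settings differ from the data, so the run does not show how the fits perform here. Shares of cells with a transcript used counts thinned to 200000 fragments. Depth was 200235 to 6122892 fragments a cell.

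Genes named are the 6 score genes, 6 M2 genes, up to 20 higher and 10 lower by their smallest fold in the 4 sets, up to 4 of highest level in members from each list, and genes past a threshold; no gene passed for TNF in members in the fit without or with the block. *Clec4e* was added for its call in other cells. 1 gene of the lists is not reported here.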

Additional observations from a re-analysis of the deposited data

Results flagged for a closer look

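Among the named genes that were tested for the difference and had at least 10 CPM in members, 7 had a TNF difference of 1 sign in members of both mice and of the opposite sign in other cells of both mice. The share of all tested genes with this pattern was not computed, so the count is no result about members. The difference was tested for each with edgeR, and none passed the threshold. *Ccl7* was 0.20 and 1.36 higher with TNF in members (mouse 1 and mouse 2, log2 scale) and at -1.15 and -0.15 in other cells, with a fitted difference of 1.40 (SE 0.13, adjusted p = 0.952). *Ccl2*, its neighbour in the chemokine cluster, was 0.34 and 1.09 higher in members and at -0.55 and -0.09 in other cells, with a difference of 1.00 (SE 0.12, adjusted p = 0.96). On 1 plate of mouse 1 the sign in members was the opposite, at -0.34 for *Ccl7* and -0.39 for *Ccl2*, and with TNF of mouse 1 left out the fitted change in members was -0.28 and -0.59. By DESeq2 the adjusted p was 1.34e-09 for *Ccl7* and 2.25e-05 for *Ccl2*. The difference was 0.66 for *Dcxr*, a carbonyl reductase, 0.49 for *C5ar1*, the C5a receptor, 0.87 for *Tfrc*, the transferrin receptor, -0.12 for *Ftl1*, ferritin light chain, and -0.30 for *Gpnmb*, with adjusted p of 0.96 to 0.991.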

How the results depend on the processing

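With 2 mice a treatment, members' calls depended on the tool. For TNF in members, the count of 0 became 218 with DESeq2, 332 with no gene filter and 2 with limma, and stayed 0 in the other 9 settings and with each sum left out (0 to 0). In other cells the count of 1 became 599 with the mouse number as a replicate block, 582 with DESeq2, 73 with no gene filter and 0 with limma, and 5 to 63 with a sum left out (5 and 40 without IL4+IL13 of mouse 1 and mouse 2, 63 and 33 without TNF). For the difference, 0 became 84 with DESeq2 and was 0 without the replicate block and with each sum left out. The block took the count over all kept cells, added after the data were seen, from 1 to 731, and left the counts in members and for the difference at 0. The share difference (TNF minus IL4+IL13) of -2.44 percentage points became 8.68 with the C1q genes alone and -9.11 with *Maf*, *Stab1* and *Cbr2*, and was -7.49 to 2.67 with 1 mouse left out. The 14 genes higher in members, score genes included, became 8 with members chosen inside each set, 4 by C1q alone, 5 by *Maf*, *Stab1* and *Cbr2*, and 49 with median CPM over cells (8 of them shared), and were 15 to 25 with a set left out (25 without IL4+IL13 of mouse 1). The 21 lower genes became 10 by C1q alone and 12 with median CPM, and 22 to 33 with a set left out (33 without IL4+IL13 of mouse 1). Of 31 printed TNF changes, 14 passed with DESeq2, 19 with no gene filter and 1 with limma. *Mgl2* turned to 0.11 in the top 10% and 0.19 by *Maf*, *Stab1* and *Cbr2*. With a sum left out, 6 genes turned: *Mgl2* was at -0.17 to 0.085, *Il10* at -2.43 to 0.44, *Mertk* at -1.55 to 0.23, *Ccl7* at -0.28 to 2.19, *Ccl2* at -0.59 to 2.26 and *Arg1* at -0.11 to 3.15. The causes were not tested.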

Other observations

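Dividing cells were present among members. Cells with at least 100 CPM of *Mki67* and *Top2a* together, after thinning, were 31.5% and 27.3% of members with IL4+IL13 (mouse 1 and mouse 2) and 15.2% and 24.5% with TNF. Among other cells they were 37.7% and 20.3% with IL4+IL13 and 19.2% and 12.6% with TNF. In mouse 2 the share was higher in members under both treatments, and in mouse 1 lower under both. The exact 95% intervals of members and others overlapped in each set, at 13.8 to 38.3% and 9.06 to 16.9% in mouse 2 with TNF. *Stmn1*, a tubulin-binding gene of dividing cells, was at 174.5, 162, 80.5 and 69.6 CPM in members and at 204, 136, 77.0 and 41.6 CPM in the others.

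Of 13 iron and heme genes 4 were lower and 2 higher in members of all 4 sets. The ferritin heavy chain *Fth1* was at 30400.0, 30220.0, 40480.0 and 35120.0 CPM in members and at 39980.0, 33710.0, 51320.0 and 46750.0 CPM in the others, lower in members in each set. The transferrin receptor *Tfrc* was at 317, 583, 507 and 795 CPM against 265, 322, 192 and 275 CPM, higher in members in each set. *Arg1* reached 1070.0 CPM in members of mouse 2 with TNF, against 137.5 CPM in the other cells of that culture, and was found in 44.4% of members and 31.6% of other cells. *Anxa1*, a regulator of inflammation, was at 1563, 1170.0, 2547 and 1355 CPM in members against 3489, 2479, 5248 and 3479 CPM.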
